A study of Mus musculus with 10 samples.

Results

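Heat shock proteins and their co-chaperones were examined in the tibialis anterior (TA), a fast-twitch muscle of the mouse hind limb, after induction of a Foxp1 transgene. The members are the protein-coding genes of the deposited table that are named Cryab, that start with Hspa, Hspb, Hspd, Hspe, Hsph, Hsp90 or Dnaj, or that are named Bag or Cct with a number. This rule found 20 of the 3480 listed genes. They comprise 5 small heat shock proteins (Cryab, Hspb1, Hspb3, Hspb6 and Hspb7), 3 genes of the HSP70 class (Hspa1a, Hspa1b and Hspa8), 1 gene of the HSP90 class (Hsp90b1), 9 DNAJ genes (Dnajb5, Dnajb6, Dnajc9, Dnajc11, Dnajc12, Dnajc16, Dnajc19, Dnajc21 and Dnajc28), 1 BAG gene (Bag3) and 1 chaperonin gene (Cct8l1). The table lists only genes whose unadjusted p was under 0.05 in the authors' own comparison, so every member was selected on this contrast before it could be found by name.

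FoxP1iSkmTg mice (n = 5) have the genotype FoxP1flSTOPx HSA-MerCreMer, that is, a Foxp1 transgene silenced by a floxed stop cassette and MerCreMer, a tamoxifen-dependent Cre recombinase under the human skeletal actin promoter. Control mice (n = 5) have the genotype FoxP1flSTOP and no Cre. All were females of 13 to 18 weeks, and all received intraperitoneal tamoxifen in corn oil, 80 mg/kg on 4 days, with TA muscle taken days after the last dose. No group carried MerCreMer without the transgene, so an effect of Foxp1 and an effect of activated Cre cannot be told apart for any gene below. RNA came from whole muscle, in which fewer cells of a type and less RNA per cell cannot be told apart.

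Small heat shock proteins bind unfolding proteins without using ATP and hold them in a state that can be refolded. HSP70 proteins bind and release clients in a cycle driven by ATP, in which DNAJ proteins deliver the client and start hydrolysis, and BAG proteins exchange the nucleotide. HSP90 proteins act later on partly folded clients, and chaperonins enclose clients such as actin and tubulin. In striated muscle these proteins are known for guarding the Z-disc, desmin and filamin against mechanical strain. Many of the genes are induced by heat shock factors, which bind the heat shock element, a repeat of GAA units in alternating orientation.

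The listed counts summed to 6620970 to 8737660 reads per mouse. Foxp1 checked the labels: it stood at 5352, 2163, 5813, 1423 and 1289 normalized counts (read counts divided by the size factor of the mouse) in FoxP1iSkmTg mice 1 to 5, and at 231.7 to 389.9 in Control mice. Its log2 fold change was 3.39 ± 0.44 (SE, adjusted p = 0.000631). Here and below, log2 fold changes are FoxP1iSkmTg minus Control, come from edgeR's quasi-likelihood test on the counts with n = 5 per group, and carry p-values adjusted for 15846 genes with a threshold of 0.05. Of 11 muscle fibre markers 7 were listed, of which 4 were lower (Acta1, Tnni2, Mylpf and Pvalb) and none higher. The summed normalized counts of these 7 were 896053 to 1045000 in FoxP1iSkmTg and 1229520 to 1483200 in Control mice. This sum moved against the small heat shock proteins described next. It does not stand for all fibre transcripts, since Myl2, a gene of slow fibres, was higher (log2 fold change 1.90, adjusted p = 0.0244). The part of fibre transcripts in the results was not tested. Of the genes followed for other cell types, Itga7 was the only listed one of 6 for satellite cells and was higher (log2 fold change 0.69). This gene alone does not show more satellite cells, nor in which cells it rose. Cd3e and Plin1 did not pass, and S100a9 was too low to test. No marker of fibro-adipogenic, endothelial, mural, macrophage, Schwann or erythroid cells was listed.

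After a filter on low counts, 19 of the 20 members were tested, and 7 passed the threshold, 5 higher and 2 lower. That is 36.8% of those tested, whereas 37.3% of all 3115 genes tested passed, 17.5% as higher and 19.8% as lower, so the share over all members is close to that of the table. Of the 5 small heat shock proteins 4 were higher and none lower, and the only BAG gene was higher. None of the 3 HSP70 genes and not the HSP90 gene passed. Of the 9 DNAJ genes 2 were lower and none higher. The median log2 fold change was 0.56 for the small heat shock proteins, 0.74 for the HSP70 genes and -0.25 for the DNAJ genes, beside 0.13 for all genes tested. Those genes, listed for a low p, lay on both sides of 0, with 1563 positive and 1552 negative. Their median absolute log2 fold change was 0.38, so 0.13 is no baseline for a class. The DNAJ median is the value of Dnajb6, which did not pass. With 3 HSP70 genes the median is the value of Hspa1b, a gene of low count that did not pass, whereas Hspa8 stood at 0.20. These counts over few genes are descriptions, and no difference between classes was tested.

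**Figure D1:**
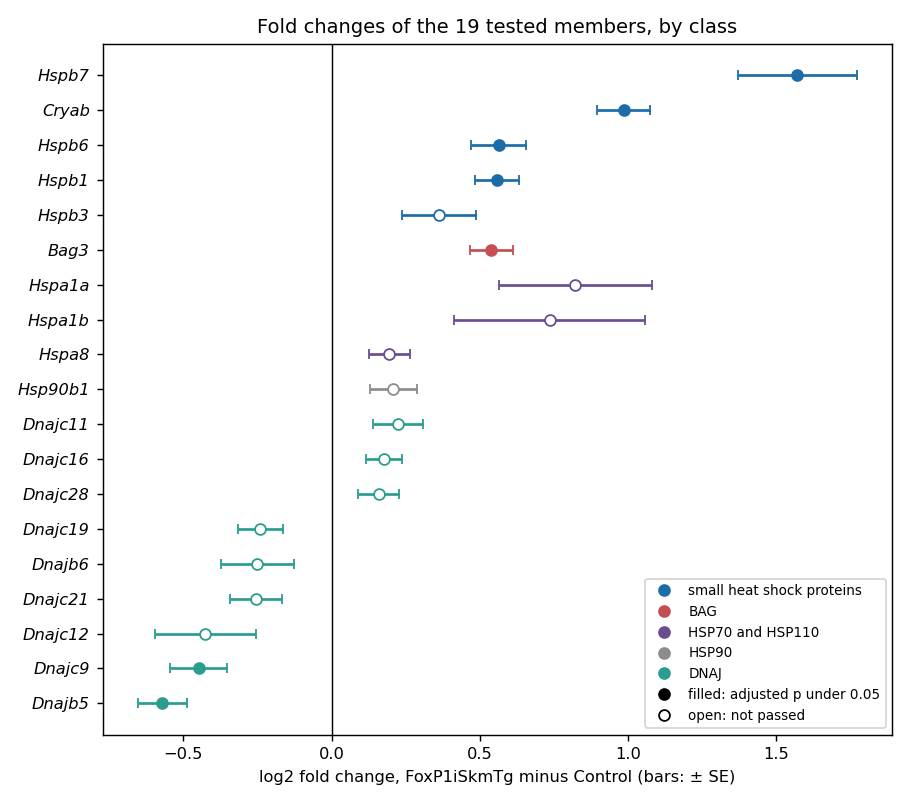
Log2 fold change of each of the 19 tested members (x axis, FoxP1iSkmTg minus Control, bars ± SE), ordered by class, with filled points for an adjusted p under 0.05. All small heat shock, BAG, HSP70 and HSP90 points lie to the right of 0, whereas 6 of 9 DNAJ points lie to the left.

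Among the small heat shock proteins, Hspb7 moved most. Hspb7, a small heat shock protein of heart and skeletal muscle that binds filamin C, stood at 12967, 13708, 15135, 10626 and 15693 normalized counts in FoxP1iSkmTg mice 1 to 5 and at 6880, 3892, 3105, 3554 and 5484 in Control mice 1 to 5. The lowest FoxP1iSkmTg mouse was above the highest Control mouse, and Control mice 1 and 5 stood above the other Control mice. The log2 fold change was 1.57 ± 0.20 (SE, adjusted p = 0.000566), a 2.97-fold rise. Hspb7 is on chromosome 4, 141420779 to 141425311 (mm10, as all positions here).

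Cryab encodes αB-crystallin, which associates with desmin and titin at the sarcomere. Its normalized counts were 15455, 16316, 18621, 14337 and 17992 in FoxP1iSkmTg mice 1 to 5 and 9461, 8980, 7671, 7446 and 8180 in Control mice 1 to 5. The groups were far apart, with a log2 fold change of 0.99 ± 0.09 (SE, adjusted p = 5.66e-05), or 1.98-fold. Cryab (chromosome 9, 50751325 to 50756636) shares exonic bases with Hspb2 on the opposite strand. No source used here says whether the counting kept strands apart, so reads of Hspb2, which is not listed, cannot be told from those of Cryab in the shared bases.

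Hspb6 and Hspb1 rose by a similar factor. Hspb6, also called HSP20, stood at 15226, 17240, 19367, 14404 and 19848 normalized counts in FoxP1iSkmTg mice and at 12796, 11401, 10917, 10869 and 12266 in Control mice. The gap between the groups was narrow, from 12796 to 14404, and the log2 fold change was 0.56 ± 0.09 (SE, adjusted p = 0.00346). Hspb6 (chromosome 7, 30552178 to 30555443) overlaps exons of Proser3 and Lin37 on the opposite strand and of Gm38670 on its own, so its counts are uncertain to that extent. Hspb1 (chromosome 5, 135887919 to 135889563) encodes HSP25, the mouse form of HSP27, which binds actin filaments. It stood at 2446, 3021, 2604, 2815 and 3185 normalized counts in FoxP1iSkmTg mice and at 1956, 2020, 1866, 1895 and 1818 in Control mice. No Control mouse reached the lowest FoxP1iSkmTg mouse, and the log2 fold change was 0.56 ± 0.08 (SE, adjusted p = 0.000817).

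Hspb3, a muscle protein that forms complexes with Hspb2, was the small heat shock protein that did not pass. Its normalized counts of 297.2, 382.8, 267.8, 260.2 and 315.4 in FoxP1iSkmTg mice overlapped the 276.6, 254.5, 201.3, 213.4 and 236.9 of Control mice. The log2 fold change was 0.36 ± 0.12 (SE, adjusted p = 0.108).

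Bag3 encodes the co-chaperone that ties HSP70 to small heat shock proteins and directs damaged filamin to autophagy. It stood at 3384, 3467, 3379, 3099 and 3532 normalized counts in FoxP1iSkmTg mice 1 to 5 and at 2477, 2495, 2307, 2358 and 1965 in Control mice 1 to 5. The FoxP1iSkmTg mice lay close together, all above the Control mice, and the log2 fold change was 0.54 ± 0.07 (SE, adjusted p = 0.000747), or 1.45-fold. Bag3 is on chromosome 7, 128523616 to 128546981.

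**Figure D2:**
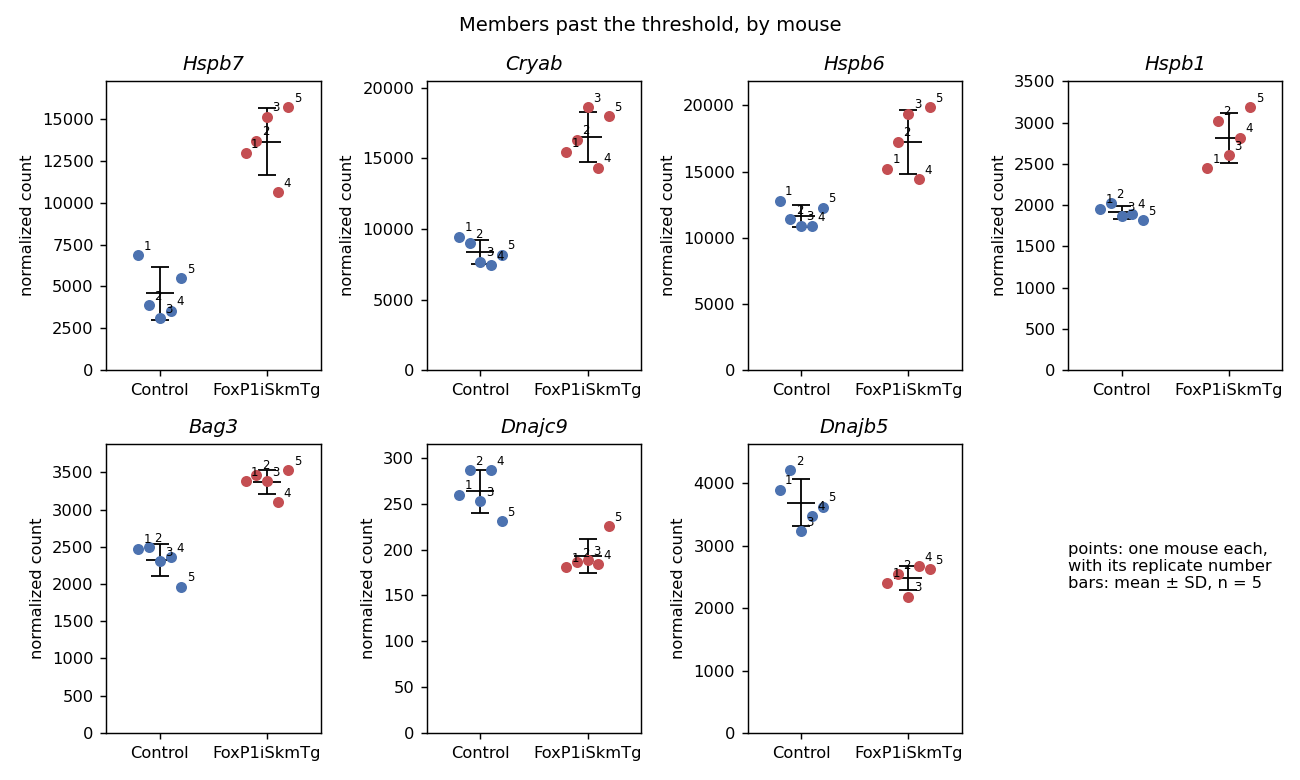
Normalized counts (y axis, from 0) of the 7 members past the threshold in each of 5 Control and 5 FoxP1iSkmTg mice, with the replicate number beside each point and bars for mean ± SD. In every panel the groups do not overlap, and the nearest points are those of Dnajc9, 225.7 in FoxP1iSkmTg mouse 5 and 230.8 in Control mouse 5.

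Promoter sequences of Hspb1, Hspb6, Hspb7 and Bag3, which rose, of Hspa1a and Hspa1b, and of Dnajb6 are shown for the heat shock element, the best known regulatory sequence of these genes. RefSeq promoter windows of GRCm38.p6 (the mm10 assembly), from 250 bases before to 50 bases after a start, were found for 16 of the 20 members, 20 windows in all, and not for Cryab, Hspa8, Dnajc11 and Dnajc12. The 2-unit form of the element was searched as GAANNTTC and TTCNNGAA, each of which reads the same on the other strand. It occurred in 8 of these 16 members, compared with 17% of all 27025 genes with a full window and 14.7% of the listed ones. The 8 include Hspa1a and Hspa1b, whose windows are near-identical. Capitals below mark that form, positions are counted from the RefSeq start, and the stretches are written from 5′ to 3′ on the strand of the gene.

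The Hspb1 stretch (chr5:135887719-135887918, plus strand) holds the element at positions -117 and -97, and the Hspb6 stretch (chr7:30553101-30553267, plus strand) holds it at -120 of the second Hspb6 start. The Hspb7 stretch (chr4:141420579-141420778, plus strand) is shown beside them because its window holds none. These 3 stretches lie outside all exons annotated in GENCODE M21.
Hspb1: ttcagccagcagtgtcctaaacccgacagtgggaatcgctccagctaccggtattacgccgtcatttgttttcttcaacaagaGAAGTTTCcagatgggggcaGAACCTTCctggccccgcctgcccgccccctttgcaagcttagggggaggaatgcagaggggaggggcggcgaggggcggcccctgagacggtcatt
Hspb6: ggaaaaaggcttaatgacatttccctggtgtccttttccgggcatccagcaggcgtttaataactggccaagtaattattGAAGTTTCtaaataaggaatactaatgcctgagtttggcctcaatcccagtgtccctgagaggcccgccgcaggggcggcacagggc
Hspb7: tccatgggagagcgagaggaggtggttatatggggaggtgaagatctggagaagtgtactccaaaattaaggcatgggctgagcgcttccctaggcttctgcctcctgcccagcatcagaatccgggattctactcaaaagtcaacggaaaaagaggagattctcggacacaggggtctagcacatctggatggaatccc

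In Bag3 the 2-unit form lies after the RefSeq start, at position 43 (chr7:128523607-128523632, plus strand). In Hspa1a (chr17:34972233-34972280, minus strand) and in Hspa1b (chr17:34959315-34959362, minus strand) it lies at -104, and the stretch around it is the same in both genes.
Bag3: gttctctggatgggaccaGAAGTTTC
Hspa1a: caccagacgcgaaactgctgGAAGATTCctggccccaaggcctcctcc
Hspa1b: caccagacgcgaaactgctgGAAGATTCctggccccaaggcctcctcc
Across their whole 300-base windows Hspa1a and Hspa1b differ at 4 bases. The 3-unit form, in which GAA, TTC and GAA or the reverse order follow each other at a spacing of 2 bases, was found in 1 member, Dnajb6, and in 0.662% of all genes. It starts at -46 of the first Dnajb6 start (chr5:29735844-29735872, plus strand), inside an annotated exon, and the capitals mark all 3 units.
Dnajb6: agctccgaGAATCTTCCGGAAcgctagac
The other members with a 2-unit match are Hspb3 at -224 and Cct8l1 at -136. The forkhead core (TGTTTAC or TATTTAC, both strands) was found in none of the 16 members and in 7.35% of all genes, and the E-box (CACGTG) was found in Dnajc16 at -78 and in 8.09% of all genes. A match is a description of letters in a short window and not a binding site, and no match says only that these letters are not there.

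The HSP70 genes all had positive log2 fold changes, and none passed. Hspa8, the constitutive HSC70, was the most abundant of them, at 19281, 20387, 19271, 16645 and 19734 normalized counts in FoxP1iSkmTg mice 1 to 5 and at 15237, 17092, 17961, 17267 and 15686 in Control mice 1 to 5. FoxP1iSkmTg mouse 4 lay inside the Control range, and the log2 fold change was 0.20 ± 0.07 (SE, adjusted p = 0.124). Without that mouse it was 0.24 ± 0.06 (SE, adjusted p = 0.0416). Leaving out any other mouse instead gave Hspa8 an adjusted p of 0.109 to 0.277.

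Hspa1a and Hspa1b, the stress-inducible HSP70 genes, were near the bottom of the members in level. Hspa1a stood at 128.0, 99.5, 116.4, 68.5 and 105.8 normalized counts in FoxP1iSkmTg mice 1 to 5 and at 69.4, 84.5, 67.4, 38.3 and 33.1 in Control mice 1 to 5. FoxP1iSkmTg mouse 4 again lay among the Control mice, and Control mice 4 and 5 were the lowest of all. The log2 fold change was 0.82 ± 0.26 (SE, adjusted p = 0.0793). It passed without FoxP1iSkmTg mouse 4 (0.94, adjusted p = 0.0417) and with the DESeq2 Wald test (0.82, adjusted p = 0.0235). Leaving out any other mouse gave Hspa1a an adjusted p of 0.0554 to 0.178. Hspa1b had a log2 fold change of 0.74 ± 0.32 (SE, adjusted p = 0.232), with 80.6 to 171.1 normalized counts in FoxP1iSkmTg and 30.1 to 118.4 in Control mice.

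The pair is reported as uncertain one by one. Hspa1a (chromosome 17, 34969190 to 34972156) and Hspa1b (34956436 to 34959238) are 9952 bases apart, and 1074 stretches of 150 bases are common to their longest transcripts, 38.1% of those in Hspa1a and 40.5% of those in Hspa1b. Summed over both, the normalized counts were 280.3, 270.5, 222.5, 149.0 and 194.5 in FoxP1iSkmTg mice 1 to 5 and 187.8, 163.2, 147.5, 88.6 and 63.2 in Control mice 1 to 5. Means were 223.4 ± 54.4 and 130.1 ± 52.3 (SD, n = 5 each), and the groups overlapped.

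Hsp90b1, the HSP90 protein of the endoplasmic reticulum, was the only listed gene of its class. It stood at 1573 to 1736 normalized counts in FoxP1iSkmTg and 1165 to 1602 in Control mice, ranges that overlapped, with a log2 fold change of 0.21 ± 0.08 (SE, adjusted p = 0.152). Its exons overlap those of Gm15344 and Gm25745 on its own strand and of 1810014B01Rik on the other.

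Of the DNAJ genes, Dnajb5 and Dnajc9 were lower. Dnajb5, a cytosolic partner of HSP70, stood at 2405, 2542, 2183, 2673 and 2619 normalized counts in FoxP1iSkmTg mice 1 to 5 and at 3900, 4213, 3233, 3483 and 3622 in Control mice 1 to 5. All Control mice were above all FoxP1iSkmTg mice, and the log2 fold change was -0.57 ± 0.08 (SE, adjusted p = 0.00126), 1.49-fold lower. Dnajb5 is on chromosome 4, 42949814 to 42959425.

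Dnajc9, known from human cells as a histone chaperone that brings HSP70 to histones, had a low count. Its normalized counts were 181.0, 186.1, 188.5, 183.7 and 225.7 in FoxP1iSkmTg mice and 260.0, 286.5, 252.9, 286.7 and 230.8 in Control mice. The groups did not overlap, but FoxP1iSkmTg mouse 5 stood apart from the other 4 and next to the lowest Control mouse. The log2 fold change was -0.45 ± 0.10 (SE, adjusted p = 0.0136). Dnajc9 is on chromosome 14, 20384638 to 20388910.

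Another 7 DNAJ genes did not pass. Dnajc19, a subunit of the mitochondrial protein import motor, had a log2 fold change of -0.24, with 531.7 to 688.7 normalized counts in FoxP1iSkmTg and 685.0 to 746.7 in Control mice. Only FoxP1iSkmTg mouse 2 reached the Control range, and without it the adjusted p of Dnajc19 was 0.0452 in place of 0.0895. Leaving out any other mouse gave 0.0922 to 0.197. Dnajc11, a protein of the mitochondrial cristae complex, and Dnajc16, placed in the endoplasmic reticulum of human cells, had log2 fold changes of 0.22 (adjusted p = 0.155) and 0.18 (adjusted p = 0.106) although their groups did not overlap. Without FoxP1iSkmTg mouse 3, which stood at 1132 normalized counts with the next mouse at 931.1, the log2 fold change of Dnajc11 was 0.15 (adjusted p = 0.333). Dnajc21, which takes part in maturing the large ribosomal subunit, stood at -0.26 (adjusted p = 0.111), Dnajc12 at -0.43 (adjusted p = 0.180) and Dnajc28 at 0.16 (adjusted p = 0.219) on the log2 scale. Exons of Dnajc19 overlap those of Fxr1 on the other strand, as do those of Dnajb6 and Gm5129 and of Hspa1a and Gm20481, and Hspa8 contains Snord14c, Snord14d and Snord14e.

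Dnajb6, which keeps proteins from aggregating at the Z-disc, showed values that differed widely among FoxP1iSkmTg mice. It stood at 835.9, 1208, 1043, 1246 and 1488 normalized counts in FoxP1iSkmTg mice 1 to 5 and at 1336, 1366, 1348, 1442 and 1432 in Control mice 1 to 5. FoxP1iSkmTg mouse 1 was far below the Control mice and mouse 5 above them. The log2 fold change was -0.25 ± 0.12 (SE) and did not pass (adjusted p = 0.321), and it was -0.15 (adjusted p = 0.628) without mouse 1 and -0.35 (adjusted p = 0.0711) without mouse 5. In all, the groups did not overlap for 9 of the 19 tested members (47.4%), beside 42.2% of all genes tested.

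Cct8l1, a chaperonin-like gene and the only listed one of its class, was barely detected. Raw counts were 2, 0, 1, 1 and 0 in FoxP1iSkmTg mice 1 to 5 and 7, 7, 4, 1 and 3 in Control mice 1 to 5, too few for the filter, and the gene lay outside the authors' adjustment. No test was made, and at such counts an absence cannot be told from a low level.

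**Figure D3:**
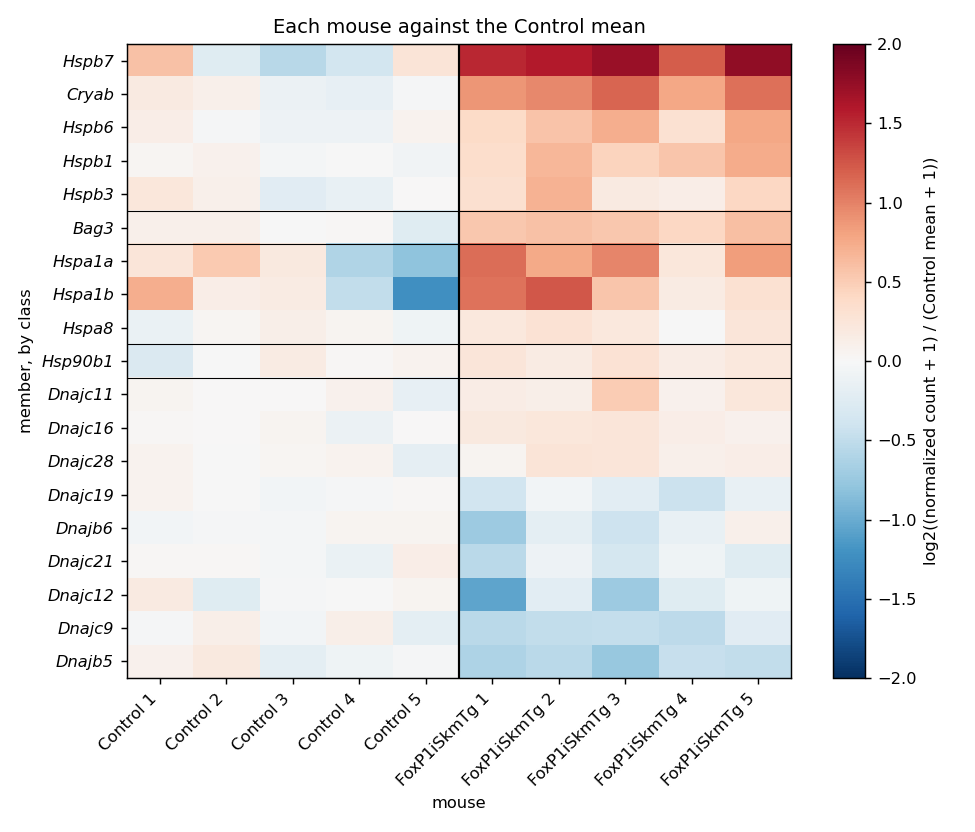
Each mouse (x axis) against the Control mean for the 19 tested members (y axis, by class), as log2 of the ratio of normalized counts with 1 added to both. The FoxP1iSkmTg columns are red for the small heat shock proteins, paler in mouse 4 for Hspb7 and Cryab, and mouse 1 is bluest for Dnajb6 and Dnajc12.

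From the most Foxp1, the order of the FoxP1iSkmTg mice was 3, 1, 2, 4 and 5. None of the 5 members that were higher had its mice in exactly that order. An exact match over 5 mice is seldom met whether or not a gene follows Foxp1, so its lack says nothing about dose. A relation to the amount of Foxp1 was not tested. Among the 5 members that were higher, FoxP1iSkmTg mouse 5, which had the lowest Foxp1 of its group, had the highest normalized count for 4 (Hspb7, Hspb6, Hspb1 and Bag3), and FoxP1iSkmTg mouse 4 the lowest for 4 (Cryab, Hspb7, Hspb6 and Bag3). How often these mice were highest or lowest over all genes was not counted. Averaged over these 5 genes, the log2 ratio to the Control mean was 0.74, 0.87, 0.92, 0.66 and 0.999 in FoxP1iSkmTg mice 1 to 5. The genes were chosen as higher, so positive averages follow from the choice, and only the spread among mice is described. FoxP1iSkmTg mice 1 and 3, with the most Foxp1, had the 2 lowest values of their group for 5 of 19 members (Hspb1, Dnajb5, Dnajb6, Dnajc12 and Dnajc21) and the 2 highest for 2 (Hspa1a and Hsp90b1), or 26.3% and 10.5%, beside 24.6% and 21.7% of all genes tested. The share at the low end is close to that of all genes.

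In the Control group, mouse 1 was highest for Cryab, Hspb7 and Hspb6. The same mouse had 434.9 normalized counts of Myl2, a myosin light chain gene of slow fibres and heart, beside 89.3 to 152.1 in the other Control mice, and FoxP1iSkmTg mice had 263.1 to 1014. Its part in these values was not tested. Without Control mouse 1, the log2 fold changes were 1.76 (adjusted p = 0.000196) for Hspb7 and 1.04 (adjusted p = 0.000137) for Cryab.

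Levels can be compared between genes only per transcript length, for which the deposited FPKM values (fragments scaled to transcript length and to library size) were used. In Control mice the order was Cryab at 319.2 ± 32.6 FPKM, Hspb6 at 286.6 ± 20.9, Hspa8 at 218.9 ± 15.0, Hspb1 at 104.8 ± 4.29, Hspb7 at 93.6 ± 32.0 and Bag3 at 51.2 ± 4.71 (SD, n = 5). The ranges of Cryab and Hspb6 overlapped, as did those of Hspb1 and Hspb7. In FoxP1iSkmTg mice Hspb7, at 278.1 ± 40.9 FPKM, stood level with Hspa8, at 250.5 ± 18.9, and Cryab stayed first at 632.2 ± 67.7. The DNAJ genes reached at most 35.2 FPKM in the Control mean (Dnajb5), and Hspa1a and Hspa1b were at 1.12 and 1.44 FPKM.

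**Figure D4:**
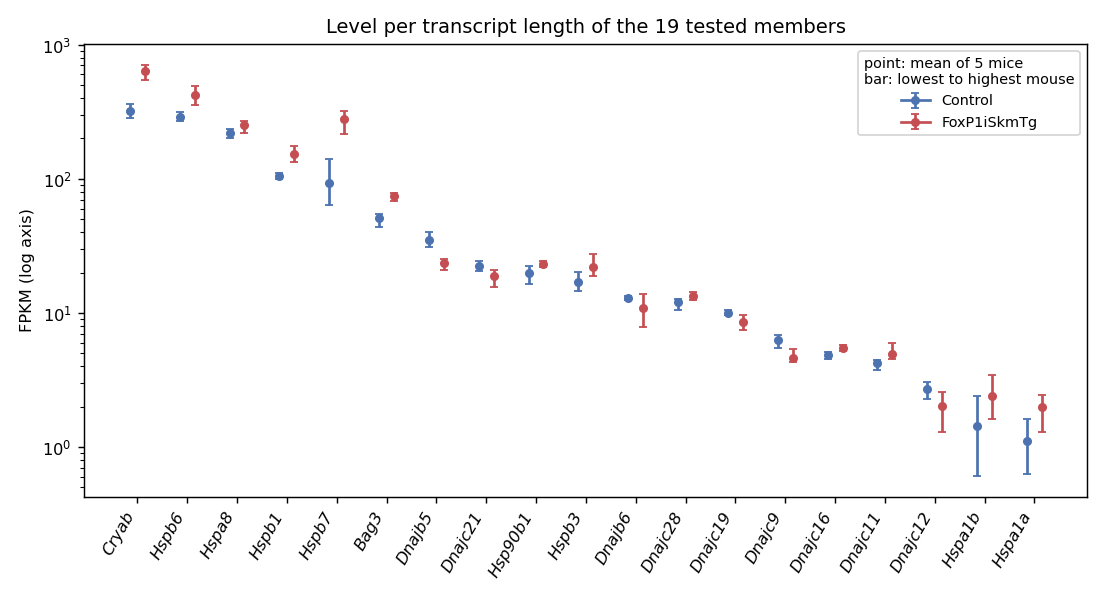
FPKM (y axis, log scale) of the 19 tested members, ordered by their Control mean, with the mean of 5 mice as a point and the lowest to highest mouse as a bar. Hspb7 moves from 93.6 FPKM in Control to 278.1 FPKM in FoxP1iSkmTg mice, where it stands level with Hspa8.

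Summed over the listed members of each class, the 5 small heat shock proteins held 821.3 ± 83.4 FPKM in Control and 1510 ± 172.8 FPKM in FoxP1iSkmTg mice (SD, n = 5 each). That was 67.1% and 77.2% of the FPKM sum over all 20 members. The HSP70 class held 221.5 ± 15.0 and 254.9 ± 19.7 FPKM, and the DNAJ class 110.8 ± 4.29 and 92.4 ± 6.73 FPKM. The sums cover listed genes only.

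How much of each class the table lists was counted against RefSeq genes that meet the same naming rule. Of 11 RefSeq genes starting with Hspb or named Cryab 5 were listed, a count that includes a few genes which share the prefix but are not small heat shock proteins. The shares were 3 of 14 for the HSP70 and HSP110 names, 1 of 3 for HSP90, 9 of 45 for DNAJ, 1 of 6 for BAG and 1 of 11 for the chaperonin names. In all, 20 of 90 names were listed (22.2%), beside 13.9% of all 21900 protein-coding RefSeq genes. That total also counts genes outside the authors' adjustment, which took in 15846 genes, so it is an unlike background. The table itself lists 3480 genes, 151 of them outside that adjustment. No excess of heat shock genes among listed genes follows from these shares. Unlisted members were not tested here.

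Other genes of protein folding were followed in 6 lists of 80 genes, of which 24 were listed and tested, with 4 higher, 4 lower and 16 not passing. The 8 that passed are 33.3% of those tested, below the 37.3% of all genes tested, so their number is no result about folding genes. Of 5 genes, heat shock factors and a regulator of them, only Hsf2, a heat shock factor of development and proteasome stress, was listed. It stood at 242.4, 370.0, 236.9, 344.0 and 309.4 normalized counts in FoxP1iSkmTg mice and at 544.0, 464.6, 494.3, 447.5 and 489.8 in Control mice. The groups did not overlap, and the log2 fold change was -0.70 ± 0.12 (SE, adjusted p = 0.00510).

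Of 23 other co-chaperones of HSP70 and HSP90, 8 were listed, 1 higher and 1 lower. Smyd1, a muscle methyltransferase that works with HSP90 in assembling myosin, rose by 0.25 on the log2 scale (adjusted p = 0.0110), from 10565 ± 315.5 to 12578 ± 568.5 normalized counts (SD, n = 5 each). Itgb1bp2, which encodes melusin, a muscle co-chaperone of HSP90, went from 1885 ± 332.6 to 1368 ± 126.0 normalized counts, a log2 fold change of -0.46 (adjusted p = 0.0280). Its call was lost in 7 of 19 alternatives, among them without Control mouse 1 (adjusted p = 0.0658) or 2 (0.0756) and without FoxP1iSkmTg mouse 1 (0.0677).

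Of 20 genes of the endoplasmic reticulum 5 were listed. Atf6, a sensor of unfolded proteins, rose from 681.6 ± 56.3 to 932.6 ± 70.0 normalized counts (log2 fold change 0.45, adjusted p = 0.00342), whereas Herpud1, which serves degradation of misfolded proteins at that membrane, fell from 1825 ± 143.9 to 1266 ± 199.2 (log2 fold change -0.53, adjusted p = 0.00890). Canx, Xbp1 and Atf4 were listed and did not pass.

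Of 13 mitochondrial genes 4 were listed, and Afg3l2, a protease of the inner membrane, rose from 1604 ± 84.9 to 1986 ± 142.2 normalized counts (log2 fold change 0.31, adjusted p = 0.0133). Of 10 prefoldin and chaperonin co-factor genes 2 were listed, and Vbp1, a prefoldin subunit, went from 754.0 ± 46.6 to 644.9 ± 26.2 (log2 fold change -0.22, adjusted p = 0.0466), a call that was lost in 13 of 19 alternatives. Leaving out any mouse except Control mouse 4 lost it.

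The last list holds partners and clients of chaperone-assisted autophagy, of which 4 of 9 were listed. Flnc encodes filamin C, the Z-disc client of Bag3, and stood at 20197, 26024, 16878, 23048 and 26645 normalized counts in FoxP1iSkmTg mice and at 14471, 13315, 13844, 14159 and 11679 in Control mice. All FoxP1iSkmTg mice were above all Control mice, with a log2 fold change of 0.74 ± 0.12 (SE, adjusted p = 0.00234). Myot, Ttn and Wipi1 did not pass.

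**Figure D5:**
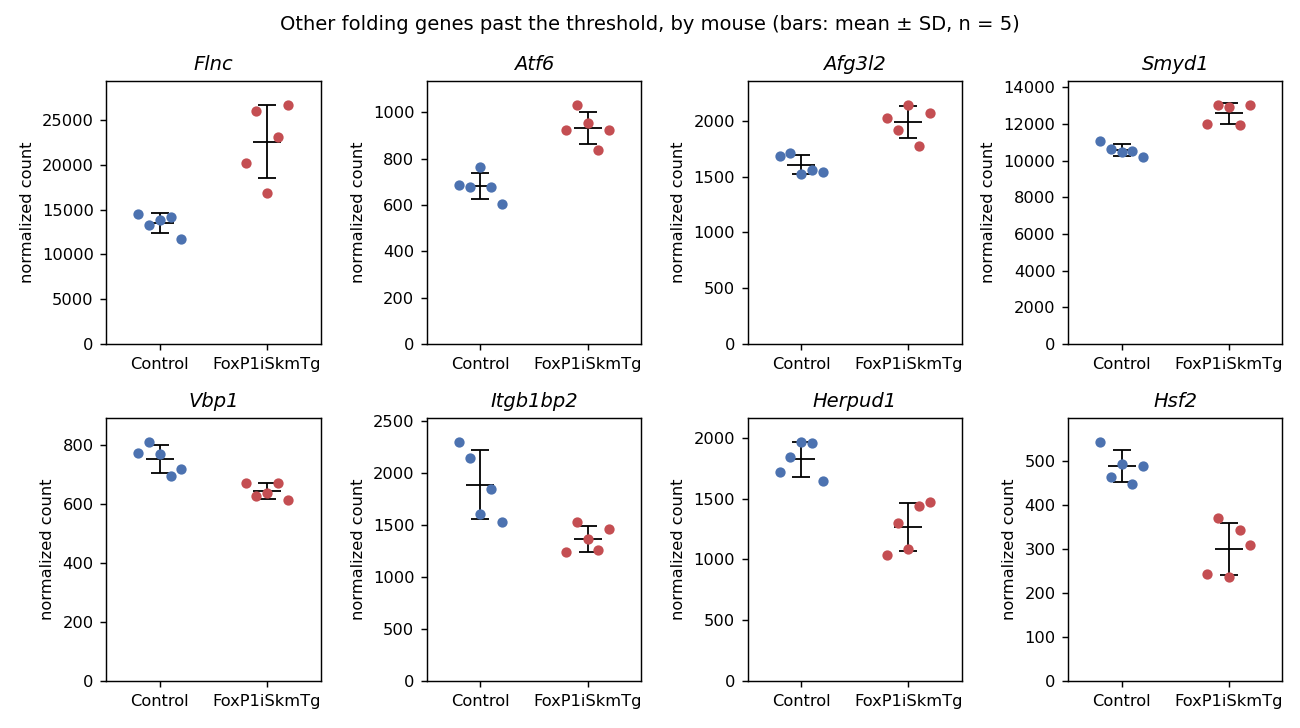
Normalized counts (y axis, from 0) of the 8 other folding genes past the threshold in each Control and FoxP1iSkmTg mouse, with bars for mean ± SD of 5 mice. The groups do not overlap in any of the 8 panels, with the smallest gap for Itgb1bp2, between 1525 and 1532.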

How the data were processed

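Poly-A RNA of 10 tibialis anterior muscles was sequenced as paired ends, with groups from the genotype labels. The authors deposited raw read counts per gene, normalized counts, a signal scaled by their DESeq2 size factors, and FPKM. The submitters' processing notes name HISAT2 2.0.5, DESeq2 1.20.0 and mm10, and the study's methods name STAR and HTSeq, so the aligner is not settled. The authors also deposited log2 fold changes, which were not used, and p-values, which served only to find that the table holds genes under an unadjusted limit of 0.05 and that 15846 genes were adjusted. The listed counts are a part of each library, and its depth is unknown.

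Counts were tested, 2-sided, by the quasi-likelihood functions of edgeR 4.0.16 under R 4.3.3, with library sizes proportional to the size factors and filterByExpr at a minimum count of 10, on 3115 of 3480 genes. Benjamini-Hochberg adjustment was over 15846 genes, taking unlisted genes as having larger p-values. Dispersions rest on genes selected for a low p. An SE is the fold change divided by the root of F. Alternatives used limma 3.58.1, DESeq2 1.42.0, other scalings, filters and adjustments, a replicate block, and leaving out each mouse. Library totals implied by the FPKM values differed from the scaled size factors by only -0.17% to 0.15%. The alternative scaled by these totals alone therefore nearly repeats the main fit. The fit was tested on simulated data, with adjustment over the tested genes alone. That run does not cover the adjustment over 15846 genes used here. Most of its genes were unchanged, unlike a table of genes selected for a low p, so it does not vouch for the calls made here. Named are members that passed, by mouse, every other member once, and genes of the other folding lists that passed. Values by mouse of Hspa1a, Hspa8, Hspb3, Dnajb6 and Cct8l1, the unpassed list genes named, and Myl2 were added after their values were seen. Positions equal those of GENCODE M21. The members and lists were chosen with earlier results of these data known.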

Additional observations from a re-analysis of the deposited data

Results flagged for a closer look

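In 2 of 58 groups of 5 mice, over Foxp1, the members and the other folding genes that passed, a mouse stood apart from the rest of its group by Dixon's criterion, where chance gives about 2.9. Dnajc9 was highest in FoxP1iSkmTg mouse 5 at 225.7 normalized counts, with the next mouse at 188.5. Dnajc11 was highest in FoxP1iSkmTg mouse 3 at 1132, with the next at 931.1.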

How the results depend on the processing

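All 19 tested members and 8 other folding genes kept their sign under 19 alternatives. The members were listed for a low p on this contrast and the 8 were those that passed, so a kept sign was likely beforehand. The share of all genes that kept their sign was not counted. Cryab, Hspb7, Hspb6, Hspb1, Bag3, Dnajb5 and Foxp1 (log2 fold change 3.07 to 3.59 leaving out a mouse, adjusted p up to 0.00349 over all alternatives) passed in each alternative. The 7 members past the threshold became 18 (13 higher, 5 lower) with adjustment over the tested genes alone, which is lenient for selected genes. Nearly the whole table passed then, 1497 genes higher and 1482 lower of 3115. Such counts are no result about members or other folding genes. Leaving out a mouse gave 7 to 9 members, 5 to 7 higher and 2 to 3 lower. The 8 other folding genes became 24 (10 higher, 14 lower) with that adjustment and 14 (8 lower) with the DESeq2 Wald test, and leaving out a mouse gave 6 to 9, with 4 to 5 higher and 2 to 5 lower. The cause was not tested beyond the number of genes adjusted over. Same-numbered mice did not deviate together over the tested genes (r = -0.023 to 0.029, with 0 of 5 best matched to its own number). Such correlations cannot show that the mice were unpaired, and no label says whether the numbers pair them. With a replicate block 391 genes were higher and 516 lower, in place of 544 and 617. Under the replicate block 1 member was lower (Dnajc9 had an adjusted p of 0.0591) and Hspa1a rose (0.0443), and 5 other folding genes passed, 2 of them lower. Over all genes, the DESeq2 Wald test gave 840 higher and 879 lower, adjustment over the tested genes alone 1497 and 1482, and leaving out a mouse 372 to 593 and 447 to 637. With TMM 692 were higher and 567 lower. The depth of the libraries is unknown, and of the members only Cct8l1, with 0 to 7 raw counts per mouse, was too low to test.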
